A study of Mus musculus with 7 samples.

Results

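Transcripts of 10 genes of transforming growth factor beta (TGF-beta) signalling were followed in effector CD8 T cells with and without ACLY. The genes were the ligand Tgfb1, the receptors Tgfbr1, Tgfbr2 and Tgfbr3, the signal carriers Smad2, Smad3 and Smad4, and the inhibitors Smad7, Ski and Skil. They were chosen by gene symbol, and 10 of 10 were found among the 16156 genes of the deposited tables. ACLY, ATP citrate lyase, makes acetyl-CoA in the cytosol from citrate. The knockout (KO) group held 3 RNA sequencing libraries of ACLY KO cells, described by the labels as CD8 T cells of OT-I background on strain C57Bl/6. The wild type (WT) group held 4 libraries of OT-I cells labelled WT. OT-I cells carry a transgenic T cell receptor for an ovalbumin peptide. In both groups the cells bore a congenic mark, had been transferred into C57Bl/6 mice 1 day ahead of infection with ovalbumin-expressing Listeria monocytogenes (LmOVA), and were recovered at day 6 of infection. The labels do not state which Cre or allele removed ACLY. They also do not state whether each library came from its own animal, so the p-values speak only to library-to-library spread, which may be technical.

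TGF-beta is secreted in a latent complex, and once freed it binds the type II receptor TGFBR2, which recruits and phosphorylates the type I receptor TGFBR1. TGFBR1 then phosphorylates SMAD2 and SMAD3, which join SMAD4 and act on genes in the nucleus. SMAD7 blocks the receptor step, and SKI and SKIL (SnoN) hold SMAD complexes in a repressed state. In CD8 T cells the pathway is known for restraining cytotoxic effector genes and for inducing CD103, the integrin chain that holds cells in epithelia.

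The libraries held 37473484 to 39692359 gene counts in KO and 45288353 to 75586011 in WT. Levels are given as CPM, the counts in each library relative to its total after trimmed mean of M-values (TMM) scaling. For Acly the KO replicates 1 to 3 had 262, 62.0 and 209 CPM, against 393, 339, 414 and 276 CPM in WT replicates 1 to 4. All KO values were under all WT values, KO replicate 1 only just, and edgeR did not call the log2 difference of -1.0 ± 0.44 (SE; adjusted p = 0.278). Libraries within a genotype stood apart in ways that touch the results below. The segments Trbv12-1 and Trbv12-2, of the V beta 5 family used by OT-I, took 46.7%, 23.2% and 61.8% of Trbv counts in KO replicates 1 to 3, against 99.0%, 99.2%, 99.0% and 84.5% in WT replicates 1 to 4. A list of 7 CD8 T cell markers summed to 2168, 5539 and 5455 CPM in KO and to 5450 to 6765 CPM in WT. For 4 of the 7 all KO values were below all WT values, which held for 9.03% of all genes. These markers were present throughout and their sum was lowest in KO replicate 1. They do not tell OT-I cells from other CD8 T cells, and the Trbv12-1 and Trbv12-2 share was lowest in KO replicate 2. B cell markers (12 of 12 measured, 11 of them with all KO values above all WT values) summed to 11043, 1182 and 663 CPM in KO replicates 1 to 3 and to 246 to 683 CPM in WT. Macrophage and monocyte markers (11 of 12 measured, 7 of them higher in each KO library) summed to 1332, 77.6 and 1286 CPM in KO and to 41.7 to 60.0 CPM in WT. Over all genes, 9.46% had all KO values above all WT values. Naive T cell markers (8 of 8 measured) summed to 2454, 6287 and 4558 CPM in KO and to 1950 to 2587 CPM in WT. Cell cycle genes (20 of 20 measured) summed to 1327, 624 and 510 CPM in KO replicates 1 to 3, and to 582, 582, 590 and 5100 CPM in WT replicates 1 to 4. The most abundant B cell marker, Ighm, was at 545 to 3745 CPM in KO, against 224 to 664 CPM in WT, and the macrophage marker Lyz2 at 21.2 to 725 CPM in KO, against 0.712 to 7.52 CPM in WT. Red cell markers reached 46338 CPM in KO replicate 1, led by Hbb-bs at 142 to 26764 CPM in KO, against 0.979 to 287 CPM in WT. The most abundant genes of the other lists ranged as follows in KO, against WT: Cd8b1 (CD8 T cells) 566 to 2035 against 1447 to 2449 CPM, Tcf7 (naive T cells) 634 to 1880 against 809 to 1207 CPM, and Mcm3 (cell cycle) 107 to 114 against 76.4 to 347 CPM. Cxcr5, of the helper T cell list, ranged over 23.9 to 202 CPM in KO, against 4.37 to 6.6 CPM in WT. Klrb1c (NK cells) was at 13.4 to 23.9 CPM in KO, against 2.71 to 74.7 CPM in WT. Pecam1 (endothelium and platelets) was at 117 to 211 CPM in KO, against 63.8 to 82.5 CPM in WT. Helper T cell markers (6 of 7 measured) summed to 503, 71.6 and 95.4 CPM in KO, against 70.8 to 77.1 CPM in WT. NK cell markers (5 of 5 measured) summed to 159, 29.1 and 63.2 CPM in KO, against 10.3 to 82.8 CPM in WT. All KO values exceeded all WT values for 2 of the 6 helper markers and 3 of the 5 NK markers (9.46% of all genes). S100a8 (neutrophils) ranged over 0.358 to 164 CPM in KO, against 0 to 0.224 CPM in WT, and Itgax (dendritic cells) over 34.3 to 254 against 151 to 401 CPM. None of the B cell or macrophage markers was at a count of 0 in all WT libraries. What part these differences played in the results for the 10 genes was not tested.

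None of the 10 genes passed the comparison of KO with WT after adjustment over all genes. Smad3 and Ski had the lowest levels relative to WT, with mean CPM ratios of 0.577 and 0.561, and Tgfbr3 and Skil the highest, with 1.77 and 1.35. Tgfbr2, Smad4 and Tgfbr1 had mean ratios closest to 1, at 1.02, 1.02 and 0.973. edgeR's quasi-likelihood test with Benjamini-Hochberg adjustment called 0 of the 10 genes and 0 of 16156 genes in all (0% in each direction), and the smallest adjusted p among the 10 was 0.183. At an unadjusted p under 0.05 it counted 1 of the 10 higher in KO (Tgfbr3), where 11.0% of all genes were, and 1 lower (Smad3), where 7.89% were. DESeq2 called 0 of the 10, beside 6.39% of all genes higher and 3.22% lower. Without a single library (KO replicate 1, 2 or 3, or WT replicate 4) edgeR called 0 of the 10, beside 0.687%, 0.730%, 0.879% and 0.690% of all genes higher and 0.297%, 0.0124%, 0.291% and 0.134% lower. limma voom with quality weights called 0 of the 10 higher and Smad3 lower, beside 5.32% and 1.68% of all genes. The bias-adjusted edgeR fit called 0 of the 10, beside 3.08% of all genes higher and 0.477% lower. For 2 of the 10 genes, Tgfbr3 and Skil, all KO values exceeded all WT values, which held for 9.46% of all genes, and for 0 of the 10 all were below, which held for 9.03%. With 10 genes, each gene is 10% of the set, so these counts lie within 1 or 2 genes of the shares over the whole table. The median log2 difference of the 10 genes was 0.03, against -0.0 over all genes. In bulk RNA, fewer cells of a type and less RNA per cell cannot be told apart.

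**Figure D1:**
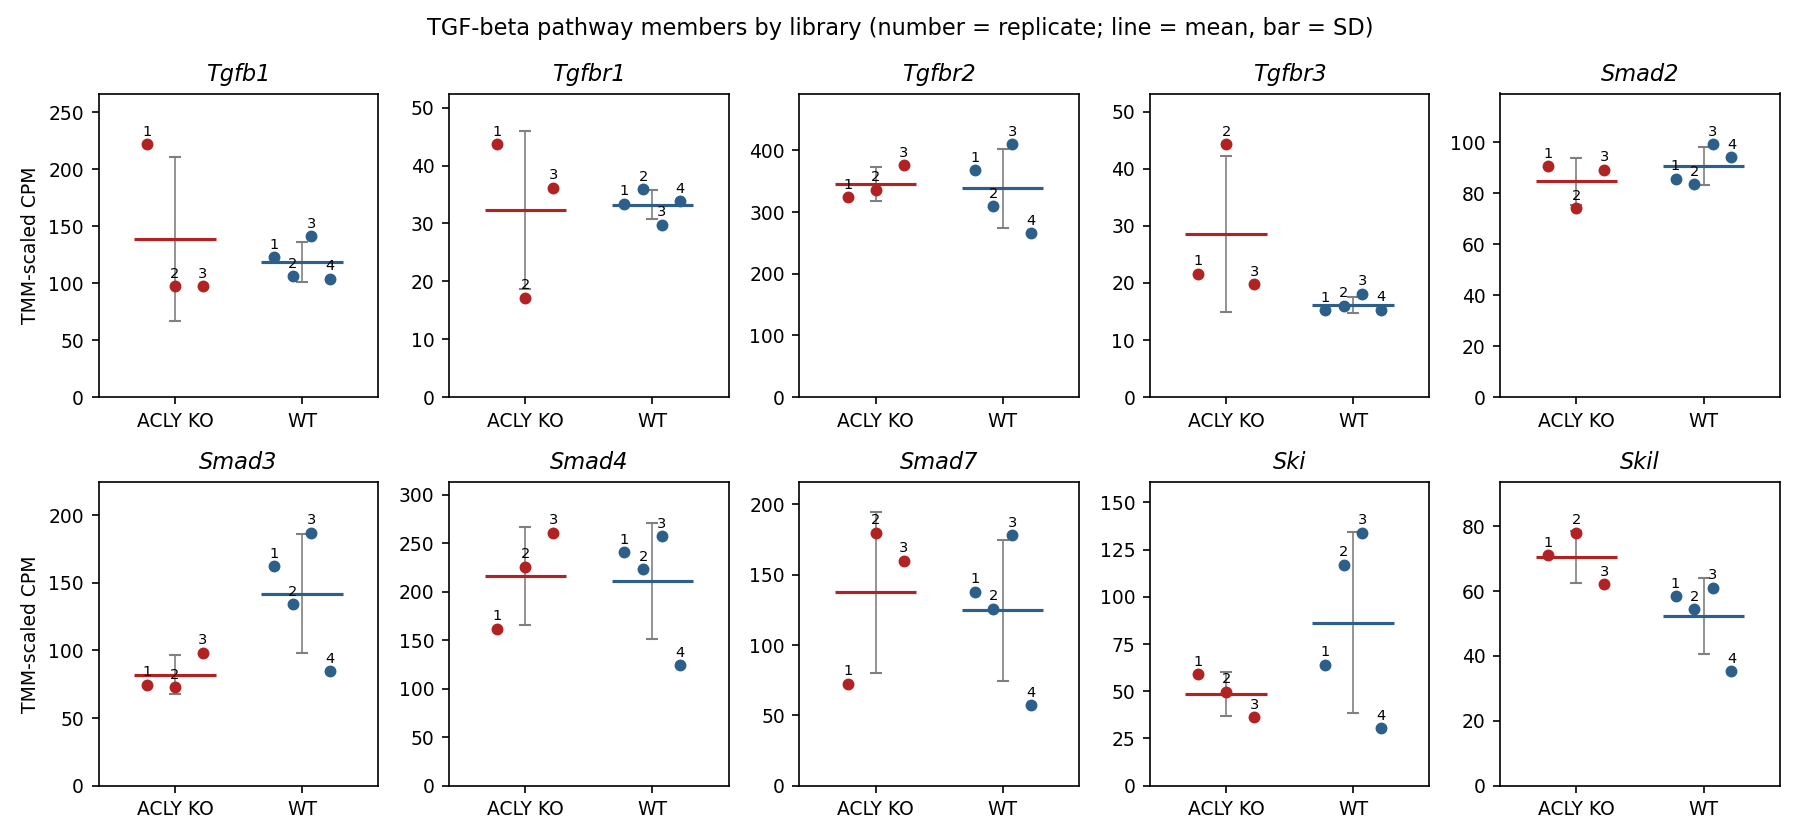
TMM-scaled CPM of the 10 genes in each library, with KO left of WT, replicate numbers beside the points, a line at the mean and a bar for the SD (n = 3 KO and n = 4 WT). Tgfbr3 and Skil are the genes whose KO points all lie above their WT points, and Smad3 in KO overlaps WT only through WT replicate 4.

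**Figure D2:**
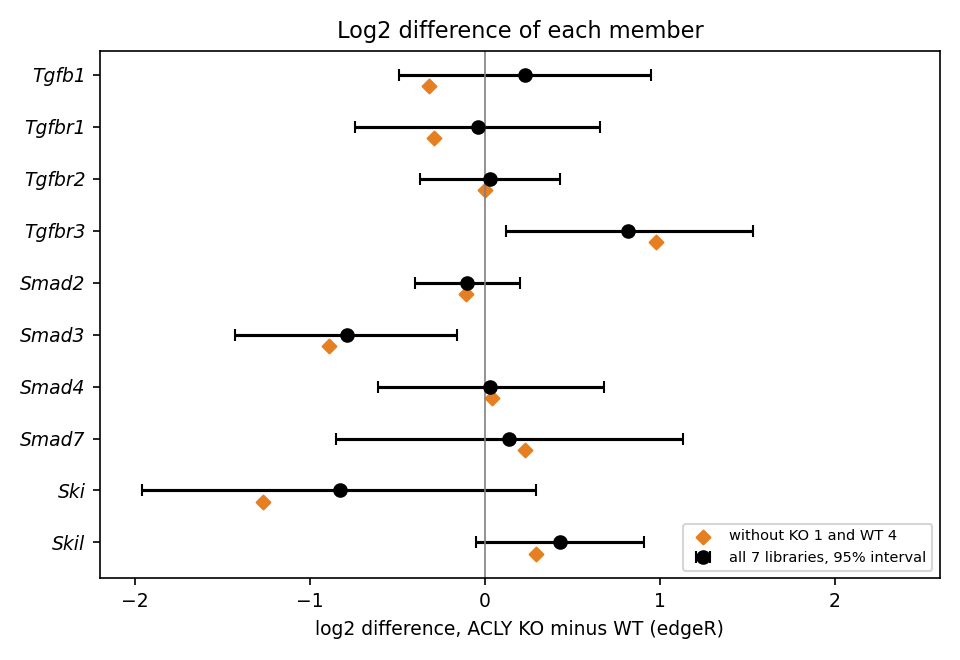
Log2 difference of each gene, KO minus WT, from edgeR on all 7 libraries (circles, with the 95% interval) and without KO replicate 1 and WT replicate 4 (diamonds). The intervals of Smad3 (-1.43 to -0.16) and Tgfbr3 (0.12 to 1.53) leave out 0 before adjustment over all genes.

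Levels were set side by side per kilobase (kb) of annotated exon, since longer transcripts collect more counts. In KO the order of mean level was Smad4, Tgfbr2, Smad7, Tgfb1, Smad3, Smad2, Ski, Skil, Tgfbr1 and Tgfbr3, and it ran over 58.3 to 4.37 CPM per kb. In WT the order was Smad4, Tgfbr2, Smad7, Smad3, Tgfb1, Ski, Smad2, Skil, Tgfbr1 and Tgfbr3, over 56.9 to 2.47 CPM per kb. Smad3 and Ski were the genes that stood lower in the KO order than in the WT order. Neighbours in these orders mostly overlapped. In KO the ranges were apart only between Tgfb1 and Smad3 and between Smad3 and Smad2. In WT they were apart only between Smad2 and Skil and between Tgfbr1 and Tgfbr3.

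The ligand Tgfb1 (chromosome 7, 25687002 to 25705077 in mm10, plus strand) was high in a single KO library. It was at 222, 97.5 and 97.2 CPM in the KO libraries, replicates 1 to 3, against 123, 106, 141 and 104 CPM in WT replicates 1 to 4. KO replicate 1 was above every other library, and KO replicates 2 and 3 were below every WT library. KO libraries averaged 139 ± 72.1 CPM (SD, n = 3), against 119 ± 17.1 CPM for WT libraries (SD, n = 4), a log2 difference of 0.23 ± 0.31 (SE; edgeR adjusted p = 0.746). With KO replicate 1 left out it was -0.28, so its direction rested on that library. KO replicate 1 was also the library with the largest B cell and macrophage marker sums (11043 and 1332 CPM). KO replicate 3, with a macrophage sum of 1286 CPM and a B cell sum of 663 CPM, was at the lowest Tgfb1 level, just under KO replicate 2. What part other cells had in the Tgfb1 levels was not tested.

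Of the 3 receptors, Tgfbr2 was the most abundant in both genotypes and close to equal between them. It encodes the type II receptor that binds the ligand (chromosome 9, 116084293 to 116175360, minus strand). It was at 324, 336 and 376 CPM in the KO libraries, replicates 1 to 3, against 368, 309, 410 and 266 CPM in WT replicates 1 to 4, so the groups overlapped. KO libraries averaged 345 ± 26.9 CPM (SD, n = 3), against 338 ± 63.3 CPM for WT libraries (SD, n = 4). The log2 difference was 0.03 ± 0.17 (SE), and its 95% interval, -0.37 to 0.43, spans KO levels of 0.773 to 1.35 times the WT level. Its sign changed between alternatives.

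Tgfbr1, the signalling type I receptor (chromosome 4, 47353222 to 47414931, plus strand), was at 43.7, 17.2 and 36.2 CPM in the KO libraries, replicates 1 to 3. In WT replicates 1 to 4 it was at 33.4, 35.9, 29.8 and 33.9 CPM. KO replicate 2 was well below every other library, and the KO libraries lay on both sides of the WT range. KO libraries averaged 32.3 ± 13.7 CPM (SD, n = 3), against 33.2 ± 2.53 CPM for WT libraries (SD, n = 4). The log2 difference was -0.04 ± 0.30 (SE; edgeR adjusted p = 0.959), with a 95% interval of -0.74 to 0.66. Without KO replicate 2 it was 0.26.

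Tgfbr3, or betaglycan, a co-receptor that presents the ligand to TGFBR2 (chromosome 5, 107106570 to 107289629, minus strand), had all its KO values above its WT values. It was at 21.6, 44.3 and 19.8 CPM in the KO libraries, replicates 1 to 3, against 15.2, 16.0, 18.1 and 15.3 CPM in WT replicates 1 to 4. KO replicate 2 stood far above the rest, and KO replicate 3 was only slightly above WT replicate 3. KO libraries averaged 28.6 ± 13.6 CPM (SD, n = 3), against 16.2 ± 1.38 CPM for WT libraries (SD, n = 4), a log2 difference of 0.82 ± 0.30 (SE) that did not pass over all genes (edgeR adjusted p = 0.207). With KO replicate 2 left out it was 0.36. That library held the largest sum of naive T cell markers (6287 CPM) and the smallest Trbv12-1 and Trbv12-2 share (23.2%), and it was also the library with the lowest Tgfbr1. KO replicate 3 had the next largest naive sum (4558 CPM) and the lowest Tgfbr3 of the KO libraries. What part naive or other cells had in the Tgfbr3 levels was not tested.

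The promoters of Tgfbr1 and Tgfbr2 are shown because the receptors work as a pair while their levels lay far apart, at 4.95 and 42.2 CPM per kb in KO and at 5.09 and 41.3 CPM per kb in WT. Each stretch lies directly upstream of the annotated start (RefSeq, GRCm38.p6, the assembly behind mm10). Capitals mark matches to GGGCGG, the GC box bound by Sp factors, or to CAGAC, a short motif that SMAD3 and SMAD4 can bind; both strands were searched, and no matches of different motifs overlapped.
Tgfbr1 (chr4:47352972-47353221, plus strand): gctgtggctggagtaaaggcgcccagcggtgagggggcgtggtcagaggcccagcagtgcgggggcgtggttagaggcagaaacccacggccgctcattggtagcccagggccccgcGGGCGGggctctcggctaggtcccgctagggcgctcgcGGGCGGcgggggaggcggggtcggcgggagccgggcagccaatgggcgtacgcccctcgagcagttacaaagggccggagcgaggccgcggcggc
Tgfbr2 (chr9:116175364-116175613, minus strand): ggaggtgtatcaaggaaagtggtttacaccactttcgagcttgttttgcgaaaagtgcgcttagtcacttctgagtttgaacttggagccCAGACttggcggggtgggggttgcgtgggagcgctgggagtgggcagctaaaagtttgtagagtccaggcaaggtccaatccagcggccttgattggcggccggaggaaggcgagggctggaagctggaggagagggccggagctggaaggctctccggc
The Tgfbr1 stretch held 2 GGGCGG and 0 CAGAC matches and was 74.8% G and C, and the Tgfbr2 stretch held 0 GGGCGG and 1 CAGAC match and was 58.4% G and C. Over 32851 promoter windows of the same length, 32.7% held GGGCGG, 42.2% held CAGAC and 0.167% held the palindrome GTCTAGAC, which neither stretch held. A match describes the letters and is no evidence of binding.

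Smad3, the receptor-activated SMAD that binds DNA directly (chromosome 9, 63646767 to 63757994, minus strand), was the gene of the 10 with the smallest p. It was at 74.6, 72.8 and 98.4 CPM in the KO libraries, replicates 1 to 3, against 162, 134, 187 and 84.8 CPM in WT replicates 1 to 4. Each KO library was below WT replicates 1 to 3, while WT replicate 4 lay inside the KO range. KO libraries averaged 81.9 ± 14.3 CPM (SD, n = 3), against 142 ± 43.8 CPM for WT libraries (SD, n = 4), a log2 difference of -0.79 ± 0.27 (SE; edgeR adjusted p = 0.183). limma voom with quality weights called it lower (adjusted p = 0.0468), and so did edgeR without KO replicate 1 and WT replicate 4 (log2 -0.89, adjusted p = 0.049, where 5.43% of all genes were called higher and 4.20% lower). Leaving out any single library gave log2 differences of -0.97 to -0.63.

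Smad2, its closest relative (chromosome 18), was the steadiest gene of the 10. It was at 90.5, 74.1 and 89.2 CPM in the KO libraries, replicates 1 to 3, against 85.6, 83.6, 99.2 and 94.0 CPM in WT replicates 1 to 4. The groups overlapped, and the log2 difference was -0.10 ± 0.13 (SE; edgeR adjusted p = 0.732), with a 95% interval of -0.40 to 0.20. Smad4, the shared partner of activated SMADs (chromosome 18), had the highest level per kb of the 10 genes in both genotypes. It was at 162, 226 and 261 CPM in the KO libraries, replicates 1 to 3, against 241, 223, 257 and 124 CPM in WT replicates 1 to 4. KO replicate 1 and WT replicate 4 were low and the other 5 libraries lay within 223 to 261 CPM. The log2 difference was 0.03 ± 0.28 (SE; edgeR adjusted p = 0.962), and its sign changed between alternatives.

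Smad7, the inhibitory SMAD that targets the receptors (chromosome 18), showed the same pair of low libraries. It was at 72.6, 180 and 160 CPM in the KO libraries, replicates 1 to 3, against 138, 126, 178 and 57.1 CPM in WT replicates 1 to 4. KO replicate 1 and WT replicate 4 were below all others, and the remaining KO and WT libraries overlapped. KO libraries averaged 138 ± 57.2 CPM (SD, n = 3), against 125 ± 50.2 CPM for WT libraries (SD, n = 4), with a log2 difference of 0.14 ± 0.42 (SE; edgeR adjusted p = 0.895) whose 95% interval ran over -0.85 to 1.13. Its sign changed between alternatives. For Smad4 and Smad7 alike, the low libraries were those with the largest cell cycle sums, at 1327 CPM in KO replicate 1 and 5100 CPM in WT replicate 4, against 510 to 624 CPM in the others. The same libraries had the lowest CD8 T cell marker sums, 2168 and 5450 CPM, against 5455 to 6765 CPM in the others. For WT replicate 4 that gap was small. Their B cell marker sums, 11043 and 683 CPM, were the largest of their genotypes. What part the cell cycle genes or other cells had in the Smad4 and Smad7 levels was not tested.

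Ski, a nuclear repressor of SMAD complexes (chromosome 4, 155154075 to 155222592, minus strand), varied most among WT libraries relative to its mean. It was at 59.2, 49.8 and 36.2 CPM in the KO libraries, replicates 1 to 3, against 64.1, 117, 134 and 30.3 CPM in WT replicates 1 to 4. Each KO library was below WT replicates 1 to 3, but WT replicate 4 was the lowest library of all. KO libraries averaged 48.4 ± 11.6 CPM (SD, n = 3), against 86.4 ± 47.8 CPM for WT libraries (SD, n = 4), a log2 difference of -0.83 ± 0.48 (SE; edgeR adjusted p = 0.407). Single libraries left out gave -1.12 to -0.54, the smallest without WT replicate 3 (adjusted p = 0.659), and leaving out KO replicate 1 together with WT replicate 4 gave -1.27 (adjusted p = 0.0757).

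Skil, which encodes SnoN, the relative of SKI and a known target of TGF-beta itself (chromosome 3, 31095058 to 31122577, plus strand), had all its KO values slightly above its WT values. It was at 71.1, 78.0 and 62.2 CPM in the KO libraries, replicates 1 to 3, against 58.5, 54.5, 61.0 and 35.3 CPM in WT replicates 1 to 4. KO replicate 3 and WT replicate 3 nearly met, and WT replicate 4 was well below the rest. KO libraries averaged 70.4 ± 7.89 CPM (SD, n = 3), against 52.3 ± 11.6 CPM for WT libraries (SD, n = 4), a log2 difference of 0.43 ± 0.21 (SE; edgeR adjusted p = 0.32). Without WT replicate 4 it was 0.28, and without KO replicate 1 as well 0.29.

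The upstream stretches of Smad3 and Ski are shown because these were the genes of the 10 with the lowest KO levels relative to WT. Capitals mark GGGCGG on either strand.
Smad3 (chr9:63757995-63758244, minus strand): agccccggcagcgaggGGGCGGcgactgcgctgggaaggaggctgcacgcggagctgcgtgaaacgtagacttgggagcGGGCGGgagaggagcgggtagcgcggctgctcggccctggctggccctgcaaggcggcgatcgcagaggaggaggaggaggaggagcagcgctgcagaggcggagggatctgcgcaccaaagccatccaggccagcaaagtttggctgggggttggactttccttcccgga
Ski (chr4:155222593-155222785, minus strand): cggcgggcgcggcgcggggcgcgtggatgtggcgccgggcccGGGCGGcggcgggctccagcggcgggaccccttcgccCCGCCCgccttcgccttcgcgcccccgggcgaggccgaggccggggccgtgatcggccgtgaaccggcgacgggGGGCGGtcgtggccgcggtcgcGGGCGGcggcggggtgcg
The Smad3 stretch (69.2% G and C) held 2 GGGCGG matches, and the 193 bases of Ski (86.5% G and C) held 4, where 23.5% of all windows of that length held any. Neither held CAGAC or GTCTAGAC. Promoters of 5 of the 10 genes were matched and scanned, and Tgfb1, the fifth, held 5 GGGCGG and 0 CAGAC matches.

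Ratios of paired genes within a library do not depend on the scaling between libraries. They were compared for 5 pairs by a two-sided exact permutation test over all 35 ways of assigning the labels, whose smallest possible p is 0.0286. These are ratios of CPM without length correction, so only their difference between genotypes is read. The log2 ratio of Smad7, the inhibitor, to Smad3, the signal carrier, was -0.04, 1.31 and 0.70 in KO replicates 1 to 3, against -0.23, -0.10, -0.07 and -0.57 in WT replicates 1 to 4. Every KO library was above every WT library, by only a little for KO replicate 1. The difference was 0.90 (exact permutation p = 0.0286, the smallest possible; 0.0952 after adjustment over the 5 pairs), with 3 of 3 KO libraries above all WT libraries. It was 0.57 without KO replicate 2 and 1.25 without KO replicate 1. The log2 ratio of Skil to Ski was 0.26, 0.65 and 0.78 in KO replicates 1 to 3, against -0.13, -1.11, -1.13 and 0.22 in WT replicates 1 to 4. The groups again did not overlap, although WT replicate 4 came close to KO replicate 1. The difference was 1.10 (exact permutation p = 0.0571, adjusted p = 0.0952). The log2 ratio of Smad3 to Smad2 was -0.28, -0.03 and 0.14 in KO and 0.92, 0.68, 0.91 and -0.15 in WT. WT replicate 4 lay among the KO libraries and the difference of -0.65 did not pass (exact permutation p = 0.114, adjusted p = 0.143). The receptor ratios differed by 0.68 for Tgfbr3 to Tgfbr2 (exact permutation p = 0.0571, adjusted p = 0.0952) and by -0.19 for Tgfbr1 to Tgfbr2 (exact permutation p = 0.714, adjusted p = 0.714). Without KO replicate 2 the Tgfbr3 to Tgfbr2 difference was 0.30, and without the same library the Tgfbr1 to Tgfbr2 difference was 0.20. No pair passed after adjustment.

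**Figure D3:**
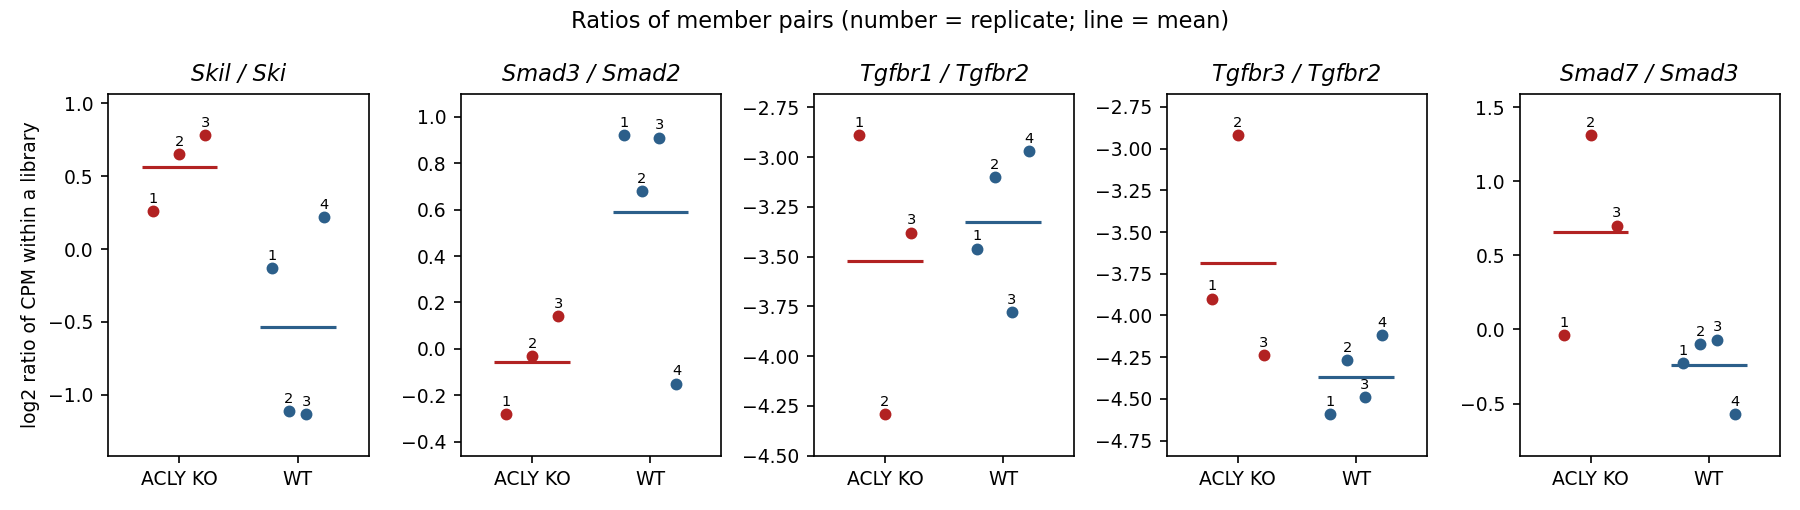
Log2 ratio of CPM within each library for the 5 pairs, with KO left of WT, replicate numbers beside the points and a line at the mean. For Smad7 to Smad3 the KO libraries sit between -0.04 and 1.31 and the WT libraries between -0.57 and -0.07, and for Skil to Ski between 0.26 and 0.78 and between -1.13 and 0.22.

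Across libraries the 10 genes did not move as a block. WT replicate 4 was below the other 3 WT libraries for 7 of the 10 genes, where 40.8% of all genes were, and it was the lowest of all 7 libraries for 5 of them (Tgfbr2, Smad4, Smad7, Ski and Skil). KO replicate 1 was the highest KO library for 4 genes and KO replicates 2 and 3 for 3 each. KO replicate 2 combined the highest Tgfbr3, Smad7 and Skil of the KO libraries with the lowest Tgfbr1, Smad2 and Smad3.

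**Figure D4:**
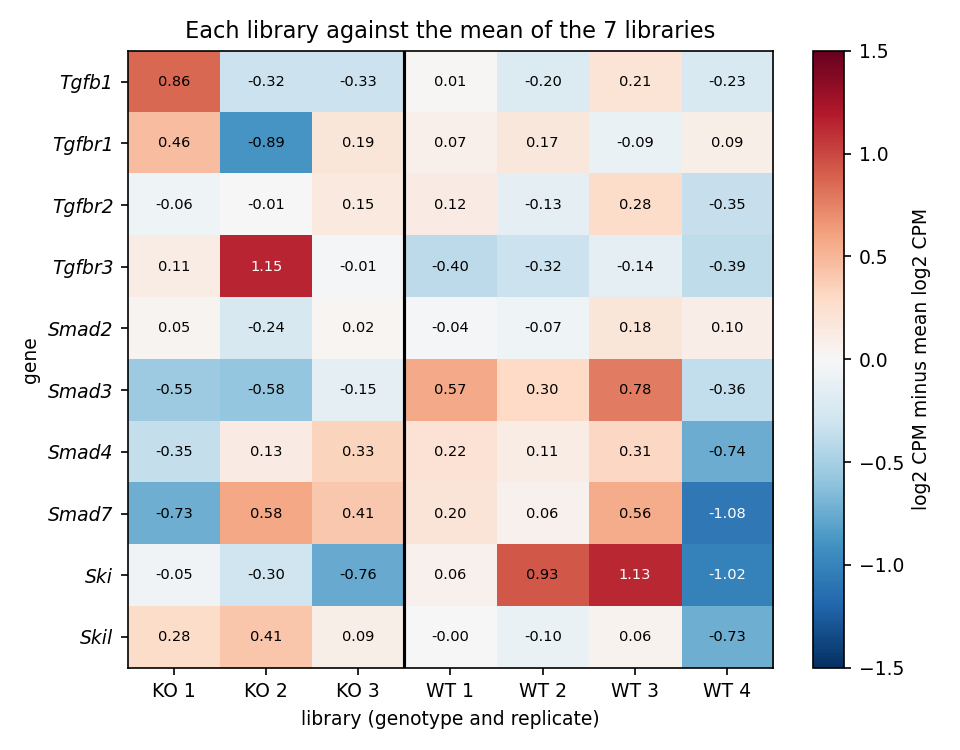
Log2 CPM of each gene in each library minus its mean over the 7 libraries, with KO columns left of the line and WT columns right of it. WT replicate 4 is low for Smad7 (-1.08), Ski (-1.02), Smad4 (-0.74) and Skil (-0.73), KO replicate 2 is high for Tgfbr3 (1.15) and KO replicate 1 for Tgfb1 (0.86).

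Of 15 listed genes for other ligands and for proteins that release or activate them, 8 were measured. Of these, 4 were higher and 4 lower in KO, with a median log2 difference of 0.33. edgeR called none (2 higher before adjustment, at p under 0.05, where 11.0% of all genes were), and DESeq2 called 1 higher (6.39% of all genes), the matrix protease Mmp14, named after its value was seen. The protease Furin, which cuts the ligand precursor, was at 97.5, 76.9 and 114 CPM in KO, against 136, 122, 173 and 61.6 CPM in WT. Its exons overlap those of a gene model on the other strand, and the strand setting is not given in the sources used here. Itgav, the integrin chain that frees latent TGF-beta, was at 47.5, 19.6 and 14.0 CPM in KO, against 37.7, 40.4, 38.7 and 34.3 CPM in WT, with KO replicate 1 above and the other KO libraries below the WT range. edgeR did not call it over all 7 libraries (log2 -0.48, adjusted p = 0.567) but called it lower without KO replicate 1 and WT replicate 4 (log2 -1.20, adjusted p = 0.0263). Its exons too overlap a gene model on the other strand. Ltbp4, a latent TGF-beta binding protein, was at 1.52, 0.0931 and 5.32 CPM in KO, against 3.13 to 5.03 CPM in WT. Tgfb3, Thbs1 and Mmp9, counted as higher and named after their values were seen, were highest in KO replicate 1. In KO replicates 1 to 3 the ligand Tgfb3 was at 2.89, 0.0466 and 0 CPM, against 0.414 to 0.797 CPM in WT. Thbs1 was at 17.9, 1.0 and 0.0512 CPM in these KO libraries, and Mmp9 at 17.2, 3.68 and 0 CPM.

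The other type I and II receptors and the endothelial co-receptor were the list with the highest median. Of 11 listed 8 were measured, 7 higher and 1 lower in KO, with a median log2 difference of 1.09. Their levels were low, with means of 0.675 to 9.68 CPM in KO and of 0.179 to 2.45 CPM in WT. In 4 of the 8 the KO libraries lay wholly above WT, where 9.46% of all genes did. edgeR called none of the 8. It counted 4 higher before adjustment, at p under 0.05, where 11.0% of all genes were, while DESeq2 called 3 higher (6.39% of all genes) and limma voom 1 (5.32%). Eng (endoglin) was at 5.40, 20.0 and 3.68 CPM in KO, against 2.48, 1.03, 2.0 and 2.37 CPM in WT (log2 2.29 ± 0.64, SE; edgeR adjusted p = 0.128), and shares exon sequence with Fpgs on the other strand. Without KO replicate 2 its log2 difference was 1.2 (adjusted p = 0.28). Acvr1b, an activin type I receptor that also signals through SMAD2 and SMAD3, was at 5.37, 5.82 and 3.33 CPM in KO, against 1.64 to 2.40 CPM in WT (log2 1.18 ± 0.35, SE; edgeR adjusted p = 0.139). Acvr2a, an activin type II receptor whose exons overlap Orc4, was at 5.0, 6.12 and 2.17 CPM in KO, against 2.12 to 2.75 CPM in WT, so its groups overlapped. Acvrl1, or ALK1, a type I receptor known from endothelium, was chosen after its values were seen. It was at 6.55, 5.66 and 7.75 CPM in KO, against 0.0339 to 0.461 CPM in WT (edgeR adjusted p = 0.0661, DESeq2 adjusted p = 7.89e-08). Platelet and endothelial markers (4 of 7 measured) summed to 316, 140 and 125 CPM in KO and to 65.5 to 86.8 CPM in WT. Of the 4, 3 were higher in each KO library, where 9.46% of all genes were. The part of such cells in the receptor values was not tested.

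Smad1, a SMAD of the bone morphogenetic protein branch, was higher in each KO library, at 30.7, 57.0 and 42.1 CPM against 20.7, 17.7, 25.0 and 24.5 CPM in WT. KO libraries averaged 43.3 ± 13.2 CPM (SD, n = 3), against 21.9 ± 3.45 CPM for WT libraries (SD, n = 4), a log2 difference of 0.98 ± 0.24 (SE) that edgeR did not call (adjusted p = 0.102). DESeq2 (adjusted p = 0.0053) and limma voom (adjusted p = 0.0274) called it higher. Smad5, of the same branch, was at 17.1 ± 3.63 CPM (SD, n = 3) in KO libraries, against 17.3 ± 1.27 CPM (SD, n = 4) in WT libraries. Of the 4 Smads listed here 2 were measured.

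Cofactors and modifiers of SMADs were mostly close to equal, with 12 of 28 measured genes higher and 16 lower in KO and a median log2 difference of -0.03. edgeR called none of the 28. It counted 5 higher and 2 lower before adjustment, at p under 0.05, where 11.0% and 7.89% of all genes were, and DESeq2 called 2, both higher (6.39% of all genes). These were Pmepa1 and Nedd4l. Pmepa1, a TGF-beta target that blocks SMAD2 and SMAD3 activation, was at 6.71, 8.59 and 4.22 CPM in KO against 0.621, 0.965, 0.845 and 1.63 CPM in WT. Every KO library was above every WT library, and the log2 difference was 2.68 ± 0.46 (SE; edgeR adjusted p = 0.0651, DESeq2 adjusted p = 2.89e-06). edgeR called it without KO replicate 3 (adjusted p = 0.0475) and without WT replicate 4 (adjusted p = 0.046). Nedd4l, a ubiquitin ligase of SMAD2 and SMAD3, was at 41.8, 33.2 and 46.4 CPM in KO, against 27.3, 21.3, 27.6 and 15 CPM in WT (log2 0.83 ± 0.25, SE; edgeR adjusted p = 0.147, DESeq2 adjusted p = 0.025). Smurf2, a ligase that SMAD7 brings to the receptors, was at 28.0, 61.5 and 59.5 CPM in KO, against 23.5 to 32.8 CPM in WT (edgeR adjusted p = 0.199, and 0.0214 without KO replicate 1 and WT replicate 4), with KO replicate 1 inside the WT range. In the non-Smad branch, 7 of 14 genes were higher and 7 lower (median log2 0.02). edgeR and DESeq2 called none, where DESeq2 called 6.39% of all genes higher and 3.22% lower. Before adjustment edgeR counted 1 of the 14 lower, at p under 0.05, where 7.89% of all genes were. This was the adaptor Shc1, at 93.0, 83.8 and 86.8 CPM in KO, against 107 to 110 CPM in WT. Pard6a, a polarity protein phosphorylated by TGFBR2, was at 6.69 ± 1.06 CPM (SD, n = 3) in KO libraries, against 9.53 ± 0.727 CPM (SD, n = 4) in WT libraries. Traf4, an adaptor of the receptors, was at 52.3 ± 8.59 CPM (SD, n = 3) in KO libraries, against 43.4 ± 3.80 CPM (SD, n = 4) in WT libraries.

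Genes listed here as induced by TGF-beta in T cells or other cells did not share a direction. Whether TGF-beta induces each of them in these cells was not tested. Of 20 listed 17 were measured, 11 higher and 6 lower in KO, with a median log2 difference of 0.85 against -0.0 for all genes. edgeR called none of the 17. It counted 4 higher before adjustment, at p under 0.05, where 11.0% of all genes were, DESeq2 called 3, all higher (6.39% of all genes), and limma voom called 6 higher and 1 lower (5.32% and 1.68%). Besides Pmepa1, the named members were Cd101, a surface protein of resident T cells, at 7.27, 10.5 and 14.6 CPM in KO, against 5.0 to 6.84 CPM in WT (edgeR adjusted p = 0.207), and Itga1, the CD49a integrin chain, at 11.1, 3.75 and 21.5 CPM in KO, against 20.2 to 34.4 CPM in WT (edgeR adjusted p = 0.28). Itgae, which encodes CD103, and 3 further genes were chosen after their values were seen. Itgae was at 11.5, 75.2 and 40.1 CPM in KO, against 6.01, 6.33, 4.47 and 33.9 CPM in WT, so WT replicate 4 was above KO replicate 1 and edgeR did not call it (log2 1.74, adjusted p = 0.337). limma voom (log2 2.62, adjusted p = 0.0183) and edgeR without KO replicate 1 and WT replicate 4 (log2 3.38, adjusted p = 0.0134) called it higher, and single libraries left out gave log2 differences of 1.02 to 2.92. Id2, a regulator of effector cells, had a lower mean in KO, at 514, 392 and 992 CPM, against 1724, 1821, 1444 and 446 CPM in WT. WT replicate 4 again lay with the KO libraries, and edgeR did not call Id2 (adjusted p = 0.315) while limma voom called it lower (adjusted p = 0.0419). Tgfbi, a matrix protein named for its induction, was at 27.5, 4.38 and 16.3 CPM in KO, against 0.0170 to 0.346 CPM in WT. It was highest in the KO libraries with the largest macrophage marker sums (replicates 1 and 3). KO replicate 2, with a macrophage sum of 77.6 CPM, was also above every WT library. What part other cells had in the Tgfbi levels was not tested. Spsb1, a negative regulator of TGFBR2, was at 6.39, 20.2 and 4.07 CPM in KO, against 0.102 to 0.864 CPM in WT.

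Genes listed here as repressed by TGF-beta were mostly lower in KO, with 3 of 15 measured genes higher and 12 lower and a median log2 difference of -0.93. Only Tbx21 had all KO values below all WT values (9.03% of all genes did), and only Myc all above (9.46%). For Prf1, Gzma, Klrg1, S1pr1 and S1pr5, chosen after their values were seen, WT replicate 4 was the lowest of all libraries. For Myc and for Il2, chosen likewise, it was instead the highest WT library. For the rest of the list a KO library was lower than WT replicate 4. edgeR called none of the 15. It counted 1 higher and 2 lower before adjustment, at p under 0.05, where 11.0% and 7.89% of all genes were. DESeq2 called 1 higher and 2 lower (6.39% and 3.22% of all genes), and limma voom 1 higher and 3 lower (5.32% and 1.68%). Tbx21 (T-bet) was at 189, 167 and 392 CPM in KO, against 537 to 670 CPM in WT (log2 -1.29 ± 0.31, SE; edgeR adjusted p = 0.0942, DESeq2 adjusted p = 0.00159). Gzmb (granzyme B) was at 72.6, 52.0 and 159 CPM in KO, against 264, 305, 246 and 156 CPM in WT, and WT replicate 4 lay just below KO replicate 3. Myc, repressed by TGF-beta in many cells, was at 158, 330 and 186 CPM in KO, against 60.6 to 141 CPM in WT (log2 1.23 ± 0.34, SE; edgeR adjusted p = 0.127, DESeq2 adjusted p = 0.00928). Beside this list stand the Trbv12-1 and Trbv12-2 shares of 23.2% to 61.8% in KO, against 84.5% to 99.2% in WT, and the larger naive T cell sums of KO replicates 2 and 3; their part was not tested.

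**Figure D5:**
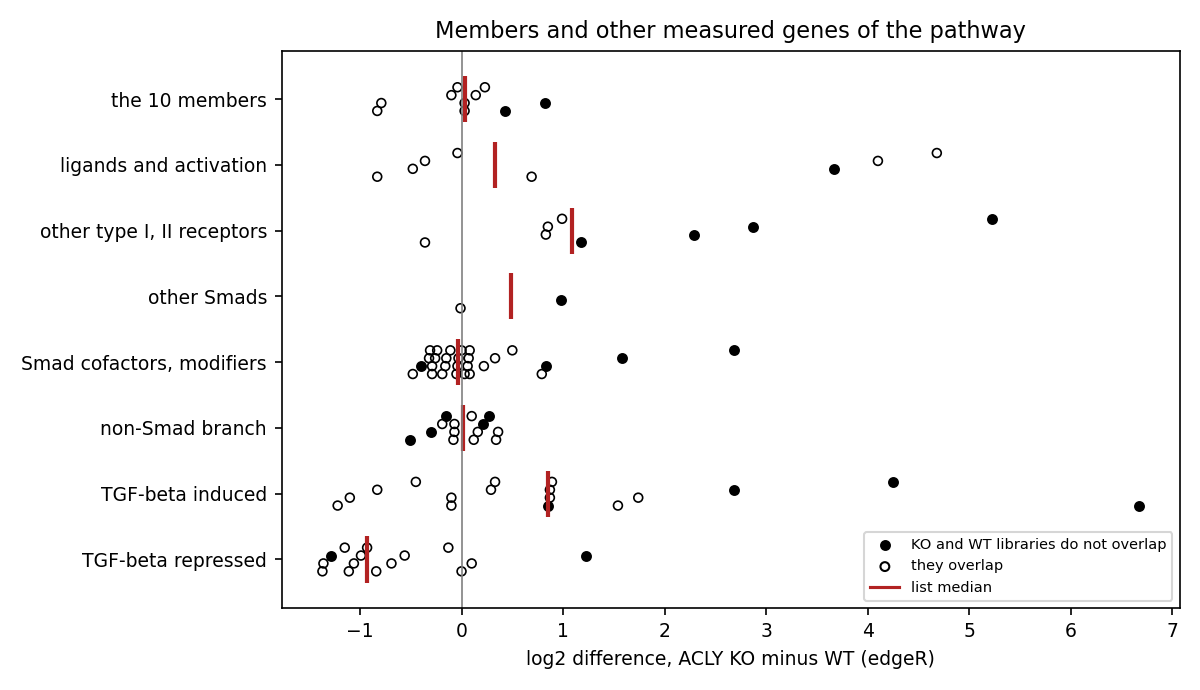
Log2 difference, KO minus WT, of the 10 genes and of each measured gene in the other pathway lists, with filled points where the KO and WT libraries do not overlap and a line at each list's median. The other receptors have a median of 1.09, the genes listed as induced of 0.85 and those listed as repressed of -0.93. The SMAD cofactors and the non-Smad branch lie at -0.03 and 0.02.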

How the data were processed

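RNA sequencing of 3 ACLY KO and 4 WT libraries was used, grouped by sample title. For 16156 genes the authors deposited raw counts and log2 CPM in separate tables. The submitters' processing notes name Trim Galore 0.6.0, STAR 2.7.8, DESeq2 and the mm10 build. How genes were counted, with which annotation, filter and strand setting, is not given in the sources used here. Deposited log2 values equalled those recomputed from the counts (edgeR, TMM, prior count 2) within 4.99e-09.

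The counts were fitted in R 4.3.3 with edgeR 4.0.16 (quasi-likelihood, genotype only; filterByExpr removed 0 genes, so all 10 members passed), adjusted over all genes at a threshold of 0.05. The 95% intervals and SEs come from this fit. DESeq2 1.42.0, limma 3.58.1 voom with quality weights, other scalings, filters, a replicate block and left-out libraries were alternatives. Exons and coordinates come from GENCODE M21; none of the 10 members shares exons with another measured gene. Code was tested on simulated data. For the 10 members counting error is small at these depths, and spread between libraries limits the precision. Counting error is larger for named genes near 0 CPM. Tgfbi, Acvrl1 and Ltbp4 were at 0.017, 0.0339 and 0.0931 CPM in their lowest libraries.

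The members, gene lists and alternatives were chosen with earlier results of these data known. Besides the 10 members and Acly, the text names the 3 genes of each list with the smallest unadjusted p among those with a mean log2 CPM of at least 1, the gene with the highest mean CPM in each marker list, and the 3 genes most like the members with the largest differences; others are said to be chosen later.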

Additional observations from a re-analysis of the deposited data

Results flagged for a closer look

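In 11 of 70 sets of WT values examined, 1 WT library stood far from the other 3: its gap to the nearest library, as a share of the WT range, was above Dixon's critical value for 4 values (95% level). About 1 in 20 groups is flagged by chance, and several of the sets share genes. None of the 10 TGF-beta genes or the 5 ratios was among them. Not every gene named in the text was examined. S1pr5, at 24.1 CPM in WT replicate 4 and 300 to 348 CPM in the other WT libraries, was not. WT replicate 4 stood apart in 7 sets. The gap was 0.998 for the cell cycle marker sum, with 5100 CPM in WT replicate 4 and 582 to 590 CPM in the others, and 0.923 for Mcm3 of that list. It was 0.985 for the share of Trbv12-1 and Trbv12-2, with 84.5% in WT replicate 4 and 99.0% to 99.2% in the others. It was 0.937 for Itgae, at 33.9 CPM in WT replicate 4 and 4.47 to 6.33 CPM in the others. It was 0.88 for the dendritic cell marker sum, with 165 CPM in WT replicate 4 and 383 to 412 CPM in the others, and 0.881 for Itgax, which makes up nearly all of that sum and which activated CD8 T cells also express. It was 0.879 for Ltv1, whose WT values spread by only 1.16 CPM (SD, n = 4). WT replicate 2 stood apart in 4 sets, with gaps of 0.914 for the red cell marker sum (468 CPM, against 1.48 to 41.7 CPM in the other WT libraries), 0.92 for Hbb-bs, 0.921 for Lyz2 and 1.0 for S100a8, which had a count of 0 in the other 3 WT libraries. WT replicate 4 was the lowest WT library for Tgfb1, Tgfbr2, Smad3, Smad4, Smad7, Ski and Skil. The part of these differences in the levels of the 10 genes was not tested.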

How the results depend on the processing

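Genes called by edgeR went from 0 to 574 with the bias-adjusted fit and 1532 without KO replicate 1 and WT replicate 4; DESeq2 called 1552 and limma voom 1132, and leaving out single libraries gave 0 to 189. Calls among the 10 genes went from 0 to 1 (Smad3) with limma voom and without both libraries, and stayed at 0 when any single library was left out. In the same order of DESeq2, limma voom, the bias-adjusted fit and both libraries left out, the calls were 1, 1, 1 and 1 for ligand activation, 3, 1, 1 and 1 for other receptors, 1, 1, 0 and 1 for other Smads, 2, 1, 1 and 4 for cofactors, 3, 7, 3 and 6 for induced genes and 3, 4, 0 and 2 for repressed genes; single libraries left out gave 0 to 1 for the last 3 lists. Signs turned for genes near 0. Leaving out single libraries gave log2 ranges of -0.28 to 0.43 for Tgfb1, -0.32 to 0.26 for Tgfbr1, -0.06 to 0.14 for Tgfbr2, -0.15 to 0.20 for Smad4, -0.10 to 0.45 for Smad7 and -0.11 to 0.15 for Smad5. With limma voom Tgfb1 was at -0.00, Tgfbr2 at -0.08, Smad4 at -0.15 and Smad7 at -0.06; without both libraries Tgfb1 was at -0.32 and Tgfbr2 at -0.00; Smad5 was at 0.01 with median-of-ratios scaling and DESeq2 and at 0.04 with upper-quartile scaling. With the replicate block 0 genes were called, and Tgfbr2, Smad4 and Smad7 were at -0.06, -0.18 and -0.19. Libraries with the same number share only that number: their deviations correlated at -0.108, -0.0513 and 0.137, and 2 of 6 libraries correlated best with their own number. The other scalings and filters changed no count, and the ratios kept their sign in every setting except Tgfbr1 to Tgfbr2 without KO replicate 2. The causes were not tested.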

Other observations

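The genes whose log2 CPM followed Tgfbr3 most closely over the 7 libraries, among 8600 with a mean log2 CPM of at least 3, were Ltv1, a ribosome assembly factor (Pearson r = 0.985), Rbbp6, a ubiquitin ligase (r = 0.981), and Herc1 (r = 0.978). All 3 were highest in KO replicate 2, at 88.5, 174 and 159 CPM; in WT Rbbp6 was at 105 to 116 and Herc1 at 104 to 113 CPM. The genes closest to Ski were Zfp777 (r = 0.947), Phf2, a histone demethylase (r = 0.943), and Ranbp9 (r = 0.942). The KO replicates 1 to 3 held 104, 50.5 and 42.9 CPM of Ranbp9, against 136, 173, 206 and 40.8 CPM in WT replicates 1 to 4, and like Ski it was lowest in WT replicate 4. With 7 libraries of shared depth and scaling these values describe likeness only.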
